A study of Homo sapiens with 16 samples.

Results

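Small nucleolar RNAs (snoRNAs) and small Cajal body RNAs (scaRNAs) were followed across total RNA and 3 polysome pools of the multiple myeloma cell line MM1.S. The members are all probes whose gene symbol starts with SNORD, SNORA or SCARNA, which gave 304 of the 47323 probes in the table and 301 gene symbols. SNORD symbols (box C/D snoRNAs) had 178 probes, SNORA symbols (box H/ACA snoRNAs) 102 and SCARNA symbols 24. A probe counted as detected where 2 or more of the 16 arrays gave it a detection p-value below 0.01. By that measure 123 members (40.5%) were detected, against 17269 of all probes (36.5%). The share was 36.5% of SNORD probes (65 of 178), 49% of SNORA probes (50 of 102) and 33.3% of SCARNA probes (8 of 24).

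MM1.S cells, a line of malignant plasma cells, received 1 uM dexamethasone, a synthetic glucocorticoid, for 4 or 0 h. RNA from fractionated polysomes was collected in 3 pools, A, B and C, beside total RNA, so that there were 8 groups of 2 arrays: pool A, pool B, pool C and total RNA, each at 4 h and at 0 h. Which polysome fractions went into which pool was not stated in the labels used here. Total RNA was taken up in TriZol and pooled RNA was precipitated from sucrose with isopropanol and cleaned with phenol and chloroform, so the method of preparation and the contrast of a pool with total RNA cannot be told apart. The 3 pools shared 1 method. Nothing in the labels says that the 2 arrays of a group came from separate cultures, and p-values then measure the spread between these samples, which may be technical.

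SnoRNAs sit in the nucleolus with a fixed set of proteins and guide the chemical modification of ribosomal RNA. Box C/D snoRNAs, with fibrillarin as the enzyme, direct methylation of the ribose, while box H/ACA snoRNAs, with dyskerin, direct the conversion of uridine to pseudouridine. ScaRNAs carry the same boxes and modify the small nuclear RNAs of the spliceosome in Cajal bodies. A few snoRNAs, among them U3, U13, U14, U17 and U22, take part in cutting and folding the precursor of ribosomal RNA. Most human snoRNAs lie in introns of other genes and are released from the spliced-out intron. An array probe reports any labelled transcript that holds its target, so mature snoRNA, precursor and a longer transcript with the same stretch cannot be told apart here. These are bulk samples, in which fewer cells with an RNA and less of that RNA per cell cannot be told apart either.

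Levels are log2 intensities after background correction and quantile normalisation, so that a difference of 1 is a 2-fold difference relative to the other probes on the array, and differences of dim probes are understated. Column names of the 2 arrays of each group start with N or X, letters that the sources used here do not explain, and values are given with the N array first. Between 26.11% and 31.3% of all probes were detected per array. Across the 123 detected members the 2 arrays of a group correlated with r of 0.871 (pool C at 0 h) to 0.9459 (total RNA at 0 h). All 8 plasma cell and myeloma markers examined, SDC1, PRDM1, XBP1, IRF4, TNFRSF17, CD38, MZB1 and POU2AF1, were detected on all 16 arrays. None of the listed T cell, monocyte, fibroblast or epithelial markers passed the filter, and of 2 erythroid markers HBB was detected on all 16 arrays. HBB was higher in pool A than in total RNA at 0 h (1.65 log2 units) and lower in pool C than in pool A (-2.59). Of the 8 plasma cell markers 5 were lower in pool A than in total RNA at 0 h, where 25.9% of all probes were lower. In pool C 4 were higher than in pool A, where 30.6% of all probes were higher. The part of these markers in the results was not tested. The glucocorticoid target TSC22D3 stood at 13.31 and 13.45 in total RNA at 4 h and at 10.11 and 12.42 at 0 h, so that the X array labelled 0 h lay nearer to the 4 h arrays. The X arrays of the 3 pools at 0 h showed the same, and counts without these 4 arrays are given where they differ. Those fits leave a single array in each 0 h group. No share of all probes stands beside their counts, or beside counts under other settings or of members called at both times. A lower count there cannot be told from a loss of calls over all probes.

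Pool A carried the most detected snoRNAs and pool C the fewest. On pool A arrays 99 (N) and 108 (X) members were detected at 4 h and 103 and 112 at 0 h. Pool B arrays had 31 and 39 at 4 h and 42 and 40 at 0 h, and pool C arrays had 23 and 19 at 4 h and 17 and 25 at 0 h. Total RNA lay between, with 70 and 81 at 4 h and 66 and 90 at 0 h. No pool A array overlapped with any other kind of RNA in this count, while the share of all probes detected on pool A arrays, 26.11% to 27.71%, was at the low end of the range. The same order held within each class of snoRNA. Detected SNORD probes numbered 53 to 63 per pool A array, 13 to 20 per pool B array, 6 to 9 per pool C array and 33 to 49 per total RNA array. SNORA probes numbered 42 to 44, 15 to 21, 10 to 14 and 29 to 36 in the same order of RNA kinds.

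Of the 123 detected members, 85 were detected on all 4 pool A arrays, 23 on all 4 pool B arrays, 10 on all 4 pool C arrays and 58 on all 4 total RNA arrays. Detection in pool C was missing altogether for 87 members, 54 SNORD, 29 SNORA and 4 SCARNA. In contrast, 7 members were detected on no pool A array. A further 20 members, 15 of them SNORD, were detected on pool A arrays alone and passed the filter through that pool. Members with 1 detection outside pool A, such as SNORD76, also needed pool A to pass and are not among the 20. Counts over the 123 are therefore given as a description, beside the 58 members that total RNA arrays all detected. Signal in total RNA was the condition for those 58, so their counts against total RNA are a description too. The mean level was highest in pool A for 106 of the 123 members, in total RNA for 8, in pool B for 4 and in pool C for 5.

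**Figure D1:**
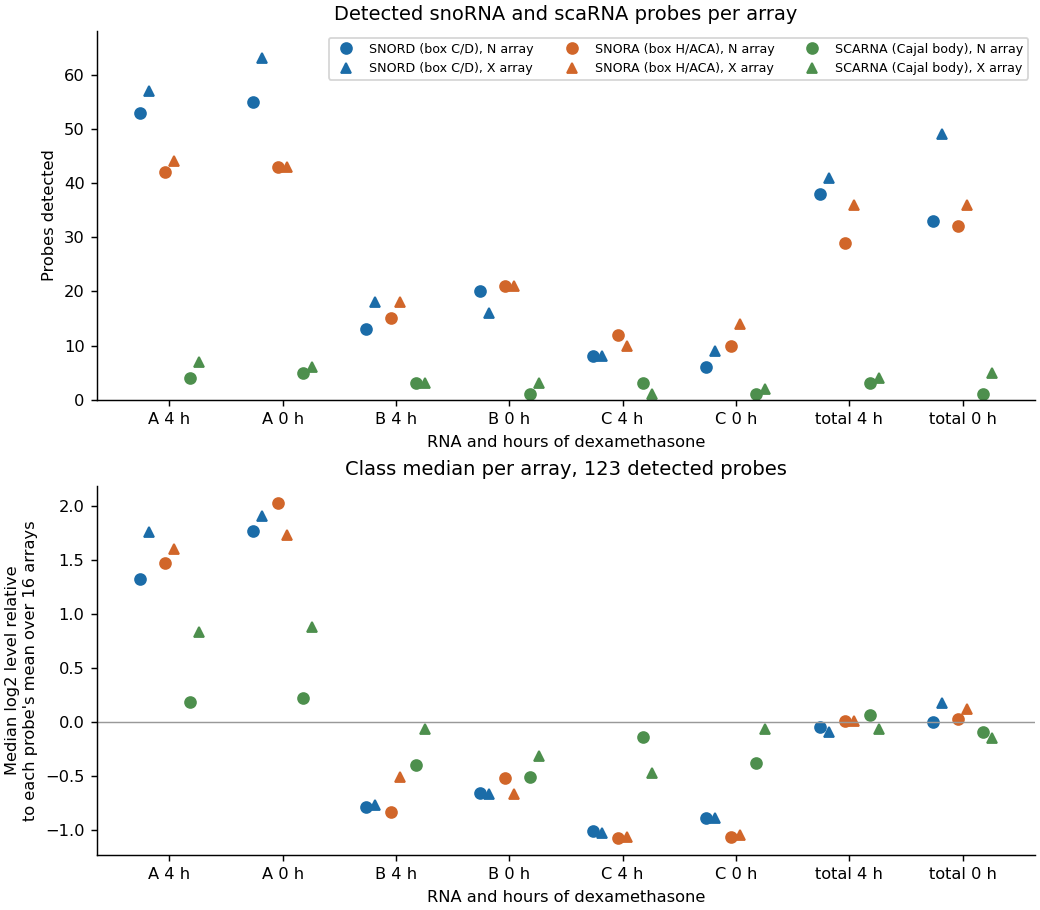
The upper panel shows the number of detected SNORD (blue), SNORA (orange) and SCARNA (green) probes on each array, by kind of RNA and hours of dexamethasone, and the lower panel the class median of log2 levels, each probe taken relative to its own mean over 16 arrays. Circles are N arrays and triangles X arrays. SNORD and SNORA medians lie between 1.32 and 2.02 in pool A, and below 0 in pools B and C.

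Box C/D and box H/ACA snoRNAs were both higher in pool A than in total RNA. At 0 h, 85 of the 123 members were higher in pool A and 3 lower (limma, adjusted p under 0.05), where 46.1% of all probes were called, 20.2% higher and 25.9% lower. At 4 h, 78 were higher and 2 lower, where 44.4% of all probes were called. The median difference of the detected members was 1.53 log2 units at 0 h, against -0.11 over all kept probes. Over all 304 members, detected or not, it was 0.18 (0.13 for SNORD and 0.35 for SNORA symbols), and 222 of the 304 differences were positive. SNORD members had a median of 1.72 and 48 of 65 were higher, SNORA members a median of 1.52 and 34 of 50 were higher, and SCARNA members a median of 0.88 and 3 of 8 were higher. Among the 58 members detected on all total RNA arrays, 39 were higher in pool A at 0 h and 3 lower, with a median of 1.82. At both times 72 of the 123 were higher. Without the 4 X arrays labelled 0 h, 73 were higher and 0 lower at 0 h.

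SNORD96A, a box C/D snoRNA in the ribosomal scaffold gene RACK1, was among the members with the widest gap. It stood at 12.31 and 11.99 in pool A and at 8.49 and 8.37 in total RNA at 0 h. The groups were far apart, by 3.72 ± 0.22 log2 units (standard error, limma, 13.1-fold, adjusted p = 1.49e-07). SNORD14C, a copy of U14 in the heat shock chaperone gene HSPA8, stood at 11.53 and 11.10 in pool A and 7.62 and 7.36 in total RNA at 0 h, a difference of 3.83 ± 0.25 (adjusted p = 4.63e-07). SNORD17, in the sorting nexin gene SNX5, had the largest difference at 0 h, with 10.06 and 11.12 in pool A and 6.17 and 6.58 in total RNA (4.21 ± 0.57, 18.5-fold, adjusted p = 8.89e-05). Its pool A arrays were uneven, and at 4 h they stood at 8.46 and 10.41.

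Other box C/D members with large differences at 0 h were SNORD96B (3.63 ± 0.24), SNORD16 in RPL4 (3.50 ± 0.27) and SNORD69 in the nucleolar GTPase gene GNL3 (3.28 ± 0.24). SNORD110, in the gene of the box C/D core protein NOP56, was detected on both pool A arrays and on no total RNA array at 0 h. Its levels of 8.23 and 9.29 in pool A were at least 8.22-fold those in total RNA. It passed the filter through pool A alone, so that this value is a description. SNORD96A and SNORD96B, like the copies of U14 and U3 below, are near-identical in family and may share signal, so each of these values is uncertain as to the copy.

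Box H/ACA members differed in the same direction. SNORA18, in the gene of the RNA polymerase I factor subunit TAF1D, stood at 10.95 and 11.27 in pool A and at 8.87 and 8.63 in total RNA at 0 h (2.36 ± 0.24, 5.13-fold, adjusted p = 1.33e-05). SNORA67, in the gene of the translation initiation helicase EIF4A1, stood at 11.07 and 10.96 in pool A and 8.84 and 8.40 in total RNA (2.40 ± 0.28, 5.27-fold, adjusted p = 3.5e-05). In both the arrays of the groups did not overlap. SNORA17B was detected on all 4 pool A arrays and on no other array, and so passed the filter through pool A alone. It stood at 8.60 and 8.36 there at 0 h, at least 6.79-fold its level in total RNA. SNORA61, in the noncoding gene SNHG12, stood at 12.46 and 12.29 in pool A and 11.97 and 12.01 in total RNA, and its difference of 0.38 ± 0.32 did not pass (adjusted p = 0.341). Under median scaling that difference was -0.11 (adjusted p = 0.808).

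Of the 8 detected SCARNA members, SCARNA16 differed most. It stood at 8.35 and 9.92 in pool A and at 5.73 and 6.04 in total RNA at 0 h, where 1 of 2 total RNA arrays detected it (3.25 ± 0.45, adjusted p = 0.000117). SCARNA10, a scaRNA with both kinds of box that guides modification of the U5 spliceosomal RNA, went the other way. Its levels were 8.51 and 8.55 in pool A and 9.21 and 9.11 in total RNA at 0 h, a difference of -0.63 ± 0.23 (adjusted p = 0.0368). That call was lost when any of the 4 arrays was left out (adjusted p of 0.0873 to 0.144) and without the X arrays labelled 0 h (adjusted p = 0.184). The other members lower in pool A at 0 h were SNORA25 (-0.87 ± 0.23, adjusted p = 0.00836) and SNORA32 (-1.05 ± 0.28, adjusted p = 0.00796), both in TAF1D. SNORA25 did not pass without the X array of pool A (-0.70, adjusted p = 0.0644), nor did SNORA32 without the X array of total RNA (-0.68, adjusted p = 0.11). Neither passed without the 4 X arrays labelled 0 h (adjusted p of 0.152 and 0.228), nor at 4 h. The members called lower in pool A at 4 h were SNORA11D (-0.88 ± 0.23, adjusted p = 0.00741) and SNORD12C (adjusted p = 0.028). SNORA11D lost that call without the X array of total RNA (adjusted p = 0.0632). SNORD12C was detected on no pool A array and 1 of 2 total RNA arrays at 4 h, so no fold is given. Its call was lost without the N array of pool A or either array of total RNA, with an offset of 50, without background correction and in the deposited value table (adjusted p of 0.0804 to 0.724).

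**Figure D2:**
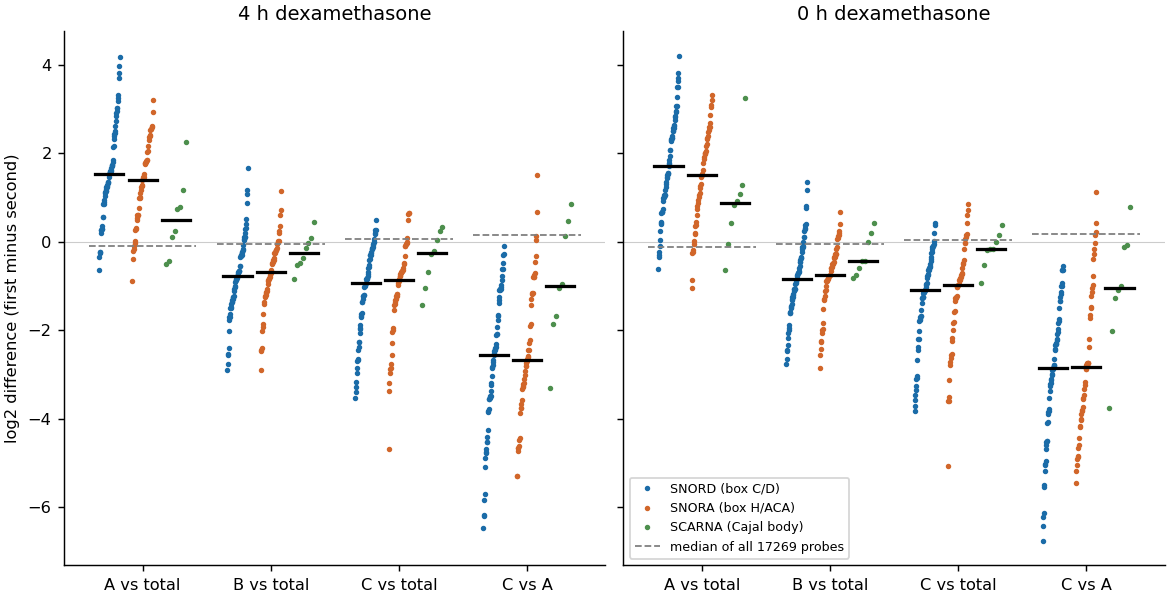
Log2 differences of the 65 SNORD, 50 SNORA and 8 SCARNA probes between pools and total RNA and between pools C and A at 4 h and 0 h, each point a probe, with the class median as a black bar and the median of all 17269 kept probes as a dashed line. SNORD and SNORA medians lie close together in each comparison, above 0 for pool A against total RNA and below 0 in the others.

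Pool C lay on the other side of total RNA. Against total RNA at 0 h, 71 members were lower in pool C and 1 higher, where 26.1% of all probes were called, 14.1% lower. At 4 h, 64 were lower and 0 higher, where 27.1% of all probes were called, and 61 were lower at both times. The median difference at 0 h was -1.08 for SNORD members (40 of 65 lower) and -0.97 for SNORA members (30 of 50 lower). It was -0.17 for SCARNA members, of which 1 of 8 was lower. Of the 58 members detected on all total RNA arrays, and so chosen by signal there, 48 were lower in pool C at 0 h, with a median of -1.81. Over all 304 members, detected or not, the median was -0.13, and 215 of the 304 differences were negative. Leaving out the 4 X arrays labelled 0 h left 42 members called in this comparison.

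SNORA61 had the largest difference. It stood at 6.54 and 7.29 in pool C and at 11.97 and 12.01 in total RNA at 0 h, a difference of -5.08 ± 0.32 log2 units (33.7-fold lower, adjusted p = 3.15e-07). SNORD104, in the noncoding gene SNHG25, was detected on neither pool C array and stood at 9.41 and 9.15 in total RNA, and was at least 12.1-fold lower in pool C (adjusted p = 3.64e-06). SNORA70, in the gene of the ribosomal protein RPL10, stood at 5.13 and 5.69 in pool C and 9.22 and 8.81 in total RNA (-3.61 ± 0.30, adjusted p = 5.67e-06), with 1 of 2 pool C arrays detecting it. The arrays of the groups did not overlap in any of these.

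The contrast of pool C with pool A, which share the method of preparation, was the widest. It uses the same pool C and pool A arrays as the contrasts with total RNA. At 0 h 105 of 123 members were lower in pool C and 2 higher, where 54% of all probes were called, 23.3% lower and 30.6% higher. At 4 h 102 were lower and 2 higher, where 55.3% of all probes were called, and 96 were lower at both times. All 65 SNORD differences were negative at both times. Median differences at 0 h were -2.85 for SNORD, -2.82 for SNORA and -1.05 for SCARNA members, against 0.18 over all probes. Over all 304 members, detected or not, the median was -0.28 (-0.22 for SNORD and -0.40 for SNORA symbols), and 233 of the 304 differences were negative. Without the 4 X arrays labelled 0 h, 98 members were lower and 1 higher at 0 h. Of the 58 members that all total RNA arrays detected, 54 were lower, with a median of -3.95.

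SNORD96A stood at 5.12 and 5.68 in pool C, where 1 of 2 arrays detected it, against 12.31 and 11.99 in pool A at 0 h (-6.75 ± 0.22, adjusted p = 2.16e-09). Its pool C level was at or near background, and the size of that difference is therefore uncertain. SNORD83B, in the ribosomal protein gene RPL3, was detected on no pool C array and stood at 11.77 and 11.17 in pool A, so that it was at least 55.6-fold lower in pool C (adjusted p = 7.1e-09). SNORD80, in the growth-arrest noncoding gene GAS5, was at least 50.7-fold lower (adjusted p = 2.99e-08) and SNORD104 at least 59.5-fold lower (adjusted p = 1.88e-08). SNORA61 (-5.46 ± 0.32, 44-fold lower, adjusted p = 4.96e-08) and SNORA67 (-5.18 ± 0.28, adjusted p = 3.44e-08), detected on 1 of 2 pool C arrays, led the box H/ACA members.

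The 2 members higher in pool C than in pool A were SNORA11D and SCARNA10, at both times. SNORA11D, in the melanoma antigen family gene MAGED4, stood at 8.47 and 8.64 in pool C, against 7.44 and 7.43 in pool A at 0 h (1.12 ± 0.23, adjusted p = 0.00106), and the levels at 4 h were 8.61 and 8.63 in pool C, against 7.17 and 7.06 in pool A (1.50 ± 0.23, adjusted p = 0.000109). It was also the only member called higher in pool C than in total RNA at 0 h (0.86 ± 0.23, adjusted p = 0.0148). That last call was lost without the X array of pool C (adjusted p = 0.0878), without the X array of total RNA (adjusted p = 0.138) and without the 4 X arrays labelled 0 h (adjusted p = 0.236). SCARNA10 stood at 9.35 and 9.26 in pool C, against 8.51 and 8.55 in pool A at 0 h (0.78 ± 0.23, adjusted p = 0.0111), a call lost without the N array of pool C (adjusted p = 0.0546) and without the X arrays labelled 0 h (adjusted p = 0.101). At 4 h its difference was 0.86 ± 0.23 (adjusted p = 0.00621), lost without the N array of pool A (adjusted p = 0.0696).

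**Figure D3:**
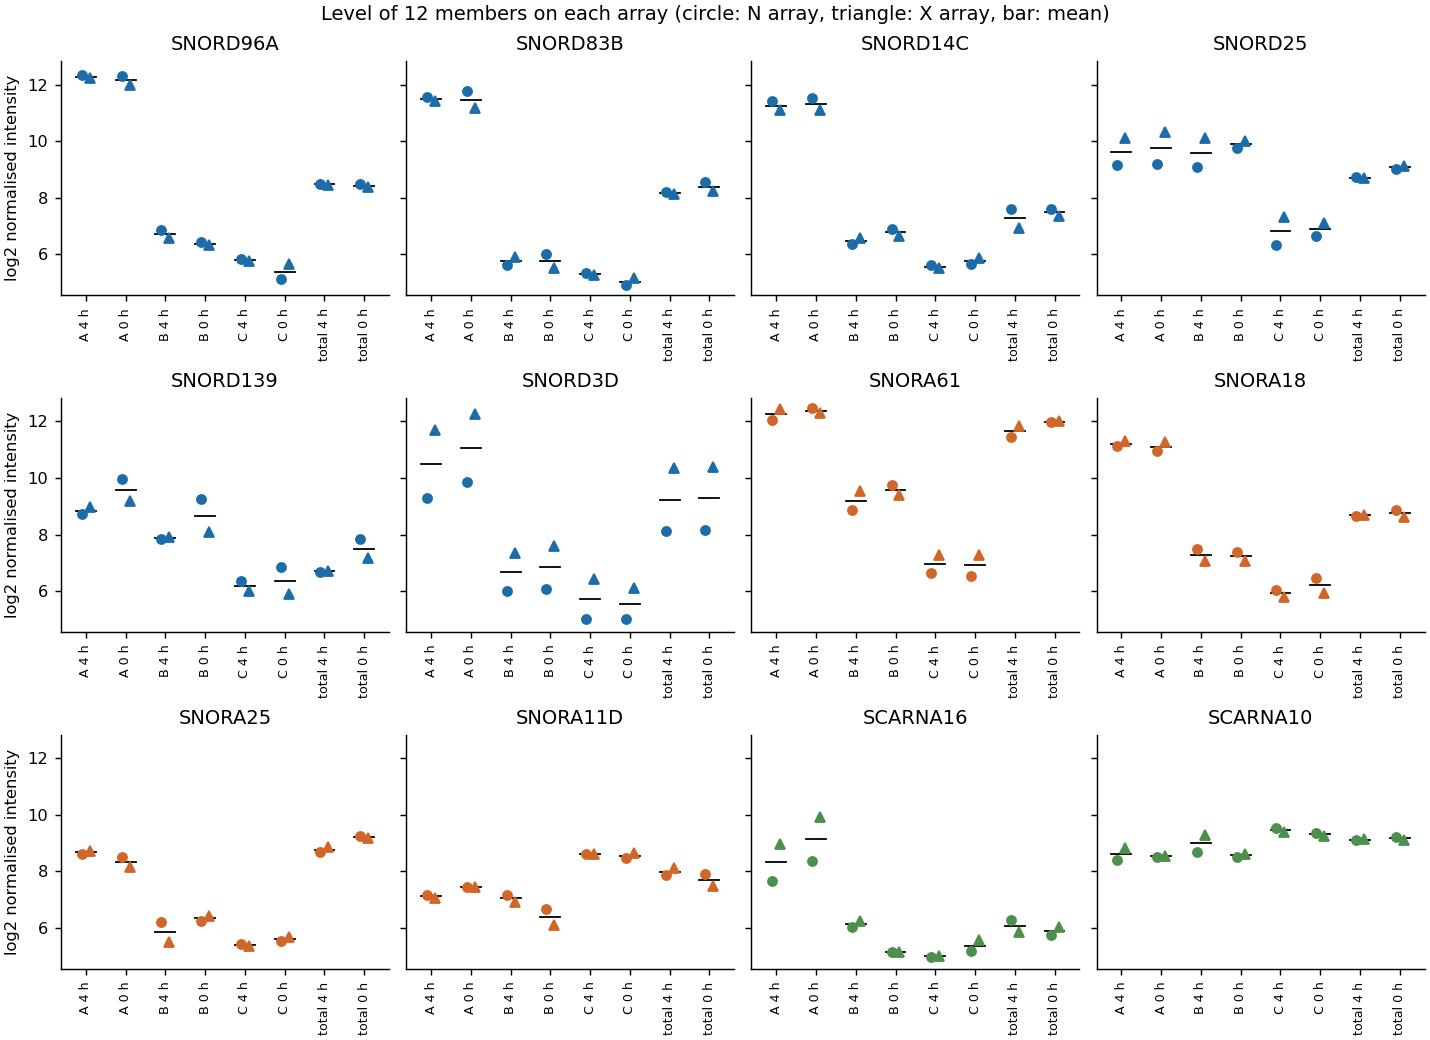
Log2 normalised intensity of 12 members on each of the 16 arrays (circle, N array; triangle, X array; bar, mean of 2), with SNORD in blue, SNORA in orange and SCARNA in green. SNORD96A, SNORD83B, SNORD14C and SNORA18 are highest in pool A, SNORA61 is close in pool A and total RNA, SNORA11D and SCARNA10 are highest in pool C, and the X arrays exceed the N arrays in all 8 groups for SNORD3D.

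Pool B lay below total RNA for most snoRNAs, by less than pool C. At 0 h 60 members were lower and 2 higher, where 38.6% of all probes were called, 20.4% lower and 18.2% higher. At 4 h 54 were lower and 4 higher, where 40.2% of all probes were called, and 49 were lower at both times. Fewer members were called at 0 h without the X array of pool B, without the X array of total RNA or without the 4 X arrays labelled 0 h. Each of these fits leaves a single array in at least 1 group. Medians at 0 h were -0.83 for SNORD members (34 of 65 lower) and -0.74 for SNORA members (25 of 50 lower), and 1 of 8 SCARNA members was lower. Over all 304 members, detected or not, the median was -0.11. SNORA25 had the largest difference at 0 h, with 6.26 and 6.43 in pool B and 9.24 and 9.17 in total RNA (-2.85 ± 0.23, adjusted p = 5.7e-06).

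Of the members called higher in pool B, 4 at 4 h and 2 at 0 h, 3 and 1 were box C/D. SNORD139, in RPL3, stood at 9.25 and 8.09 in pool B and at 7.85 and 7.16 in total RNA at 0 h (1.17 ± 0.40, adjusted p = 0.0351). Its difference at 4 h was 1.16 ± 0.40 (adjusted p = 0.0344). The call at 0 h was lost without the N array of pool B (0.59, adjusted p = 0.313) and without the X array of total RNA (0.82, adjusted p = 0.241), and that at 4 h without any 1 array (adjusted p of 0.097 to 0.119). Median scaling removed both calls (adjusted p of 0.235 at 4 h and 0.184 at 0 h). SNORD17 was also higher in pool B at 4 h (1.66 ± 0.57, adjusted p = 0.0318), and lost its call without any 1 array (adjusted p of 0.054 to 0.183). SNORA11C, called at 0 h (at least 1.01-fold, adjusted p = 0.0401), lost its call without any 1 of the 4 arrays (adjusted p of 0.0825 to 0.152). SNORD25, in the noncoding gene SNHG1, stood at 9.78 and 10.01 in pool B at 0 h, against 9.03 and 9.13 in total RNA (0.82 ± 0.45, adjusted p = 0.17).

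Medians of box C/D and box H/ACA members had the same sign in each contrast of a pool with total RNA and of pool C with pool A. The class gap, the SNORD median minus the SNORA median of the log2 differences, was 0.12 at 4 h and 0.20 at 0 h for pool A against total RNA. The same gap differed between arrays by a standard deviation of 0.16 and 0.22, so that neither exceeded the spread between arrays, and with a background offset of 50 both turned negative (-0.14 at 4 h and -0.09 at 0 h). It changed sign between arrays of pool A, where relative class levels were lower for SNORD than SNORA on both N arrays (gaps of -0.15 at 4 h and -0.26 at 0 h) and higher on both X arrays (0.16 and 0.18). For pool B against total RNA the gap was -0.08 at 4 h and -0.09 at 0 h (standard deviations of 0.15 and 0.08), and for pool C against pool A it was 0.10 and -0.03 (0.16 and 0.22). For pool C against total RNA it was -0.07 at 4 h and -0.11 at 0 h, beyond standard deviations of 0.02 and 0.04, but leaving out single arrays turned it positive at both times (up to 0.03 at 4 h and 0.07 at 0 h). Among the 58 members detected on all total RNA arrays it was -0.47 at 4 h and 0.12 at 0 h in that contrast, so that its sign differed between the times. A share of 61.5% of SNORD and 62% of SNORA members was called in that contrast at 0 h.

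Of the snoRNAs that act in ribosomal RNA processing, 4 copies of U14 were detected, and 3 of them were higher in pool A than in total RNA at 0 h. SNORD14C is described above. SNORD14D, also in HSPA8, stood at 8.98 and 8.75 in pool A and 7.01 and 6.57 in total RNA (2.08 ± 0.21, adjusted p = 1.29e-05). SNORD14B, in RPS13, stood at 7.09 and 6.60 in pool A and 5.84 and 5.74 in total RNA, where 1 of 2 arrays detected it (1.06 ± 0.25, adjusted p = 0.00364). That call was lost under median scaling (0.40, adjusted p = 0.16) and in the deposited value table (0.30, adjusted p = 0.105). SNORD14A, also in RPS13, stood at 8.71 and 7.81 in pool A and 7.82 and 7.81 in total RNA at 0 h (0.45 ± 0.31, adjusted p = 0.254). It passed at 4 h (1.20 ± 0.31, adjusted p = 0.00659), but not under median scaling (0.41, adjusted p = 0.243) or without the X array of pool A (adjusted p = 0.0502). SNORA73A, a copy of U17, stood at 8.17 and 8.36 in pool A and 5.95 and 6.26 in total RNA at 0 h (2.16 ± 0.26, adjusted p = 3.94e-05) and was at least 6.03-fold lower in pool C than in pool A. SNORD22 (U22), in SNHG1, stood at 6.66 and 5.28 in pool A and 6.14 and 6.23 in total RNA (-0.22 ± 0.37, adjusted p = 0.66). Its pool A arrays, 1 of which detected it, lay on either side of total RNA. SNORD13 (U13) was detected on 1 pool A array at each time and nowhere else. It stood at 5.93 and 9.18 in pool A at 0 h, the largest gap between 2 arrays of a group among the members.

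U3, the most abundant snoRNA of the ribosomal RNA processing complex, was marked by a difference between the N and X arrays. SNORD3D stood at 9.85 and 12.26 in pool A, 5.02 and 6.11 in pool C and 8.18 and 10.38 in total RNA at 0 h. The X array was above the N array in all 8 groups, by 1.09 to 2.41 log2 units. A gap over 1 in all 8 groups was seen for 2 of 17269 probes, and SNORD3D was 1 of them. SNORD3A was also higher on X arrays in all 8 groups, by 0.38 to 1.94, and SNORD3C in 7 of 8. Within each prefix the difference of SNORD3D between pool A and total RNA at 0 h was alike, 1.68 between the N arrays and 1.88 between the X arrays. The fit counts the gap between N and X arrays as spread, and in it SNORD3D did not pass (1.78 ± 1.06, adjusted p = 0.185). SNORD3A, with 2.22 and 2.41 within the prefixes, did (2.32 ± 0.75, adjusted p = 0.0217), but not under median scaling (1.32, adjusted p = 0.127), without the X array of pool A (adjusted p = 0.203) or without the N array of total RNA (adjusted p = 0.206). Pool C was lower than pool A for both, by -5.49 ± 1.06 for SNORD3D (adjusted p = 0.000709) and -4.51 ± 0.75 for SNORD3A (adjusted p = 0.000226). SNORD3D was detected on 1 of 2 pool C arrays at 0 h, so the size of its difference is uncertain.

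Most detected members with a measured containing gene lay above that gene in the contrast of pool A with total RNA. Most lay below it in that of pool C with pool A. By position in the RefSeq annotation of GRCh38.p14, 106 of the 123 detected members lie within 1 other gene, 30 in a ribosomal protein gene, 50 in another protein-coding gene and 26 in a noncoding gene, while 11 lie in several genes and 6 in none. Members in each of these groups were higher in pool A. At 0 h 22 of 30 members in ribosomal protein genes, 33 of 50 in other coding genes and 16 of 26 in noncoding genes passed, with medians of 1.52, 1.39 and 1.19. Of the 6 with no containing gene, 5 passed, with a median of 2.19. For 83 members, in 55 genes, the containing gene had a kept probe. The member's difference between pool A and total RNA at 0 h was above that of its containing gene for 62 members and below for 21, with medians of 1.31 for the members and 0.17 for the genes. Of the 55 containing genes 19 were higher and 10 lower (52.7% called, against 46.1% of all probes). Across these pairs, which share arrays and in part a gene, Spearman's rho was -0.085. For pool C against pool A at 0 h, 66 members lay below and 17 above, with medians of -2.78 for members and -0.38 for genes. There 7 of the 55 genes were higher and 25 lower (58.2% called, against 54% of all probes). Medians of signed differences do not measure how far genes moved in either direction, and no test set members against genes. Members detected on pool A arrays alone, 20 of the 123, could enter these pairs. So could members that had 1 detection elsewhere and needed pool A to pass the filter. For all of these signal in pool A was the condition of being counted, so the counts of pairs are a description.

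Single pairs show the range. HSPA8 was lower in pool A than in total RNA at 0 h (-0.93, adjusted p = 0.00412), where its intronic SNORD14C was higher by 3.83. EIF4A1 was lower as well (-0.68, adjusted p = 0.013), where SNORA67 was higher by 2.40. NOP56 was higher (1.64, adjusted p = 0.000251). SNORD110 within it was at least 8.22-fold higher, but it passed the filter through pool A alone, so that its value is a description. The noncoding gene SNHG12 was higher in pool A (1.36, adjusted p = 0.00298) and fell by 3.44 in pool C against pool A (adjusted p = 1.71e-06), where SNORA61 fell by 5.46.

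**Figure D4:**
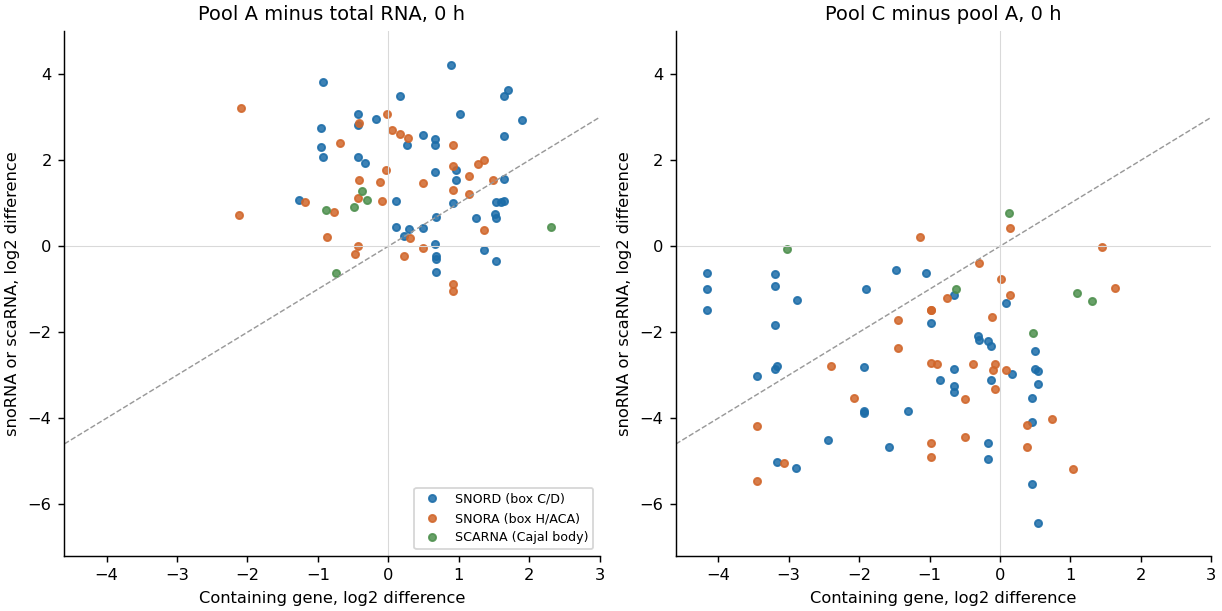
Log2 difference of 83 detected snoRNAs and scaRNAs (vertical axis) against that of the gene that contains them (horizontal axis), for pool A minus total RNA and for pool C minus pool A at 0 h, with the line of equal differences dashed. Most points lie above the line on the left (62 of 83) and below it on the right (66 of 83).

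Members of 1 gene also differed from each other. The 8 genes with at least 3 detected members, chosen after values were seen, held 29 of them. In TAF1D, SNORA18 (2.36), SNORA8 (1.87) and SNORD6 (1.00) were higher in pool A than in total RNA at 0 h. SNORA25 (-0.87) and SNORA32 (-1.05) were lower. SNORA40 was detected on 1 of 2 pool A arrays at each time and nowhere else, and so passed the filter through pool A alone. Its value at 0 h, at least 1.29-fold higher (limma, adjusted p = 0.0476), is a description. SNORD6 did not pass under median scaling (0.09, adjusted p = 0.797). TAF1D itself was higher in pool A by 0.91 (adjusted p = 0.0487). In RPL13A, SNORD33 (2.50), SNORD32A (2.36) and SNORD35A (1.72) were higher in pool A, while SNORD34 was detected on no pool A array and 1 of 2 total RNA arrays. Total RNA detected SNORD32A and SNORD35A on 1 of 2 arrays. In SNHG1 none of the 4 passed, with differences of -0.61 to 0.68. In RPL3, SNORD83B (3.07) and SNORD139 (2.07) were higher in pool A. SNORD43 was at least 5.16-fold higher, but was detected on pool A arrays alone, so that its value is a description. In pool B SNORD139 differed from total RNA by 1.17 and SNORD83B, detected on 1 of 2 pool B arrays, by -2.64.

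The mRNAs of the proteins that make and bind snoRNAs were measured on the same arrays. For pool A against total RNA at 0 h their counts stand beside 20.2% of all probes higher and 25.9% lower, with a median of -0.11. Of the 4 box C/D core proteins, NOP56 (1.64 ± 0.26) and SNU13 (0.90 ± 0.24) were higher in pool A than in total RNA at 0 h, NOP58 was lower (-0.95 ± 0.25) and the methyltransferase FBL did not pass (-0.10 ± 0.19, adjusted p = 0.68). Of the 4 box H/ACA core proteins, the pseudouridine synthase DKC1 (-1.39 ± 0.19, adjusted p = 0.000117) and GAR1 (-0.66 ± 0.19, adjusted p = 0.0106) were lower, and NHP2 and NOP10 did not pass. Among 12 assembly factors 1 was higher (ZNHIT3) and 7 lower in pool A, with RUVBL1 (-1.72 ± 0.28) and SHQ1 (-1.52 ± 0.24) among them, with a median of -1.09. In pool C 9 of the 12 were higher than in pool A and 0 lower, where 30.6% of all probes were higher, with a median of 1.43 against 0.18 over all probes. Of 6 trimming and decay factors, TOE1 (0.90 ± 0.23) was higher and PARN (-1.74 ± 0.27) and DIS3 (-1.07 ± 0.23) were lower in pool A. Of 4 Cajal body proteins, WRAP53 was higher (0.57 ± 0.22, adjusted p = 0.0461). Medians were 0.40 and -0.33 for the core proteins of box C/D and box H/ACA, -0.67 for trimming and decay factors and 0.32 for Cajal body proteins.

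Few members passed the test for 4 h of dexamethasone. Each 0 h group held an X array with high levels of the glucocorticoid targets TSC22D3 and DDIT4. In total RNA DDIT4 stood at 9.94 (N) and 13.04 (X) at 0 h and at 13.76 and 13.92 at 4 h. A low number of calls therefore does not show that snoRNAs did not respond. In pool A 1 of 123 members passed, where 0.492% of all probes were called. That count was 0 under median scaling and in the deposited value table, 3 without background correction and 4 with an offset of 50. In total RNA, pool B and pool C 0 passed (limma), where 0.0579% (0.00579% lower), 0.0521% and 0.0579% of all probes were called, and 5, 11 and 1 members had an unadjusted p under 0.05. These are 4.07%, 8.94% and 0.813% of the members, against 3.95%, 6.2% and 5.34% of all probes. In pool A 20 members did, 16.3% against 12.3% of all probes. Differences leaned to negative values, with 89 of 123 below 0 in total RNA (median -0.17) and 86 of 123 in pool A (median -0.22), against medians of 0 and 0.02 over all probes. Members on an array are not independent, and these counts are a description. SNORD and SNORA medians were -0.22 and -0.23 in pool A, -0.04 and -0.10 in pool B, -0.01 and -0.03 in pool C, and -0.17 and -0.19 in total RNA.

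The member that passed was the box C/D snoRNA SNORD87. It stood at 5.76 and 5.38 at 4 h, not detected on either array, and at 7.19 and 7.09 at 0 h in pool A. It was at least 2.35-fold lower at 4 h (-1.57 ± 0.20 log2 units, adjusted p = 0.00591). Without the 4 X arrays labelled 0 h the difference was -1.63. In total RNA the levels were 5.81 and 5.79 at 4 h and 6.04 and 6.41 at 0 h (-0.42 ± 0.20, adjusted p = 1), and the difference between the responses in pool A and in total RNA did not pass (-1.15 ± 0.29, adjusted p = 0.715). The call did not hold under median scaling (-1.0, adjusted p = 0.143), in the deposited value table (-0.34, adjusted p = 0.226) or when the fit held only the pool A arrays (adjusted p = 0.611). It held without any 1 of the 4 arrays (adjusted p of 0.0186 to 0.0477). The number of members called in pool A was 4 without the N array at 0 h and 3 without the X array at 4 h.

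SNORD91A, in TSR1, had the most negative difference in pool A, with 4.83 and 6.18 at 4 h and 6.92 and 8.47 at 0 h (-2.19 ± 0.48, adjusted p = 0.0643), and its groups did not overlap. It was detected on 1 of 2 pool A arrays at 4 h, on both at 0 h and nowhere else. It was counted through pool A alone, so that its value is a description. It passed with an offset of 50 (-1.59, adjusted p = 0.0452), without the N array at 0 h (adjusted p = 0.0115) and without the X array at 4 h (adjusted p = 0.0477). In total RNA the smallest p-values were those of SNORD32B (-0.71 ± 0.23, adjusted p = 0.776), SNORA73B (-0.68 ± 0.26, adjusted p = 1) and SNORD96B (-0.60 ± 0.24, adjusted p = 1). In pool B they were those of SNORD16 (at least 1.29-fold higher at 4 h, adjusted p = 0.35), SNORD88B and SCARNA27. The response to dexamethasone in pools A, B and C was compared with that in total RNA. The difference passed for 0 members in each (limma, 0% of all probes), with 12, 5 and 4 members at an unadjusted p under 0.05 (9.76%, 4.07% and 3.25%, against 4.34%, 1.93% and 1.72% of all probes).

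**Figure D5:**
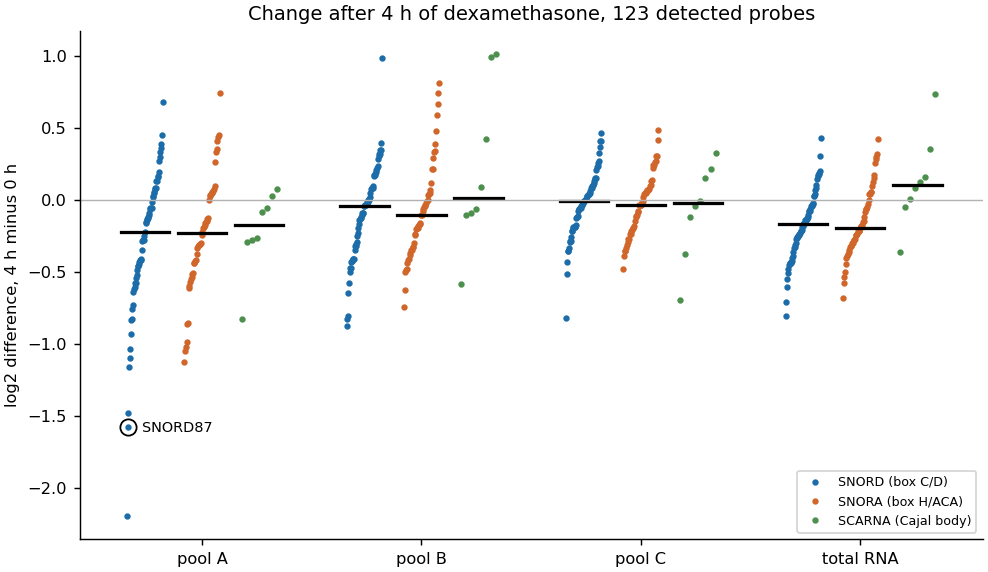
Log2 differences between 4 h and 0 h of dexamethasone for the 65 SNORD (blue), 50 SNORA (orange) and 8 SCARNA (green) probes in pools A, B and C and total RNA, with class medians as black bars. SNORD87 in pool A, circled, is the member that passed the threshold, and the lowest point, SNORD91A, did not.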

How the data were processed

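The deposited non-normalised table holds, per the file headers, detection p-values beside linear intensities for 47323 probes on each of 16 Illumina arrays. Per the labels' protocols, biotinylated RNA was made with an Ambion kit. How the images were read is not stated in the labels used here. A deposited value table holds log2 values of the same samples, with the normalisation and centring by the authors unknown. The medians of its columns, replicate 1 before replicate 2, were 7.31 and 7.41 in pool A, 7.26 and 7.34 in pool B, 7.27 and 7.30 in pool C and 7.21 and 7.21 in total RNA at 4 h, and 7.34 and 7.35, 7.29 and 7.31, 7.24 and 7.30, and 7.21 and 7.21 at 0 h. For 16 of 16 arrays the log2 intensity had its highest correlation with a value column of the same group, N arrays with replicate 1 and X arrays with replicate 2, so direction is that of intensity.

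Intensities were corrected by normexp on detection p-values (limma nec, offset 16), quantile-normalised and log2-transformed (limma 3.58.1 in R 4.3.3). Probes with a detection p-value under 0.01 on at least 2 arrays were kept (17269). Of 30121 annotated probes 30113 had 1 symbol, 8 had several and 17202 probes are unnamed here. Symbols were updated through the RefSeq gene table of GRCh38.p14, which matched 30074 probes and all 304 members, and 0 member symbols changed. A mean was fitted for each of 8 groups (lmFit, eBayes, 8 residual and 5.14 prior degrees of freedom) over all kept probes, for 12 comparisons and 3 differences of responses. P-values were adjusted by Benjamini-Hochberg within each, with a threshold of 0.05. "At least" folds set the brighter group against a per-array bound, the lowest detected signal or the probe's own signal, whichever was higher. Class medians have no test. The fit was tested on simulated arrays. The number of arrays limits precision.

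Named members were the 8 with the largest called differences each way without overlap, or the 3 smallest p-values where none passed, the 3 brightest of each class in each kind of RNA, the processing snoRNAs and scaRNAs, and the largest gap between arrays. Others are named by containing gene. Results of 2 members higher in pool B are not reported here by name. The members and lists were chosen with earlier results of these data known.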

Additional observations from a re-analysis of the deposited data

How the results depend on the processing

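Of 1616 values of 123 results of named members under other settings, 1508 kept direction and side of the threshold, 93 fell short of it, 9 newly passed and 6 reversed. All reversed values were of results that had not passed, for pool A against total RNA at 0 h: SNORA61 at -0.11 and SNORD14A at -0.59 under median scaling, SNORD14A at -0.11 in the deposited value table, and SNORD22 at 0.52 without the 4 X arrays labelled 0 h. Leaving out 1 array gave 0 to 0.89 for SNORD14A and -0.91 to 0.48 for SNORD22. The cause of these changes and those below was not tested. Median scaling moved the median of all probes for pool A against total RNA to -0.49 at 4 h and -0.69 at 0 h. Between pools C and A it moved that median to 0.81 and 0.93. With it 67 members were higher and 6 lower in pool A than in total RNA at 4 h, and 62 and 7 at 0 h. No share of all probes stands beside these counts or the other counts of calls in this section. They cannot be told from a change in calls over all probes.

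For 4 h against 0 h in pool A, the count of 1 member became 0 under median scaling, in the deposited value table, with only the groups compared and among members detected on all 16 arrays, 2 with 1 probe per gene, 3 without background correction and 4 with an offset of 50. A replicate block on the column prefix, which does not pair the samples in the labels, gave 5 members there and moved no other count by over 1.5 times. Same-prefix deviations correlated by -0.07 to 0.37 over 28 pairs of groups, with a median of 0.21 and 24 pairs over 0.1. With the block SNORD3D passed for pool A against total RNA at 0 h (adjusted p = 0.000832), as did SNORD25 for pool B (0.0437) and SNORD91A at 4 h in pool A (0.0399). Among the 10 members detected on all 16 arrays, the calls at 4 h and 0 h were 6 and 7 for pool A against total RNA, 5 and 7 for pool B, 7 and 9 for pool C, and 10 and 10 for pool C against pool A. The deposited value table gave 34 and 40 for pool B and 40 and 45 for pool C against total RNA. Without the 4 X arrays labelled 0 h, added after seeing the data, the counts at 0 h were 33 for pool B and 42 for pool C.

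The class gap (SNORD minus SNORA) took these values, at 4 h and 0 h. With an offset of 50 it was -0.14 and -0.09 for pool A and 0 and -0.04 for pool C against total RNA. Between pools C and A at 0 h it was 0.25. Without background correction it was -0.04 and -0.09 for pool A and 0.01 and -0.03 for pool C. With no filter it was -0.21 and -0.22 for pool A, 0.09 and 0.12 for pool B, 0.13 and 0.05 for pool C, and 0.40 for pool C against pool A at 4 h. Among the members detected on all 16 arrays it was 0.41 and 0.73 for pool A, 0.65 and 1.06 for pool B, -0.84 and -0.91 for pool C, and -0.77 and -1.10 for pool C against pool A. The deposited value table gave -0.08 for pool A at 4 h, and 0 and -0.02 for pool C. For pool C at 4 h it was -0.10 with median scaling and -0.09 with 1 probe per gene. Without the X arrays labelled 0 h it was -0.08 for pool A and -0.05 for pool C at 0 h, and 0.41 for pool C against pool A. For 4 h against 0 h it was -0.43 in pool B and -0.02 in pool C among members detected on all 16 arrays, and 0.01 in pool C with an offset of 50, without background correction, with no filter and in the deposited value table, and -0.01 without the X arrays.

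Leaving out 1 array gave 72 to 82 and 76 to 89 calls for pool A, 40 to 47 and 39 to 58 for pool B, 46 to 54 and 49 to 58 for pool C against total RNA, 92 to 105 and 101 to 106 for pool C against pool A, at 4 h and 0 h, 1 to 4 for 4 h against 0 h in pool A, and 0 for the other responses. The gap ranged from -0.04 to 0.16 and -0.21 to 0.37 for pool A, -0.15 to 0 and -0.24 to -0.13 for pool B, -0.08 to 0.03 and -0.23 to 0.07 for pool C, -0.13 to 0.23 and -0.11 to 0.28 for pool C against pool A. For 4 h against 0 h it ranged from 0.02 to 0.08 in pool A, -0.06 to 0.07 in pool B, -0.01 to 0.04 in pool C and -0.17 to 0.05 in total RNA. With 2 arrays a group and 87 members below detection in pool C, small differences among dim members could not be resolved.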
